A study of Mus musculus with 8 samples.

Results

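The transcription factors Tbx21, Eomes, Prdm1, Id2, Id3, Bcl6, Zeb2, Bhlhe40, Runx3 and Gata3, which steer CD8+ T cells towards effector or memory fates, were followed through interferon beta (IFNβ) treatment and T cell receptor (TCR) stimulation. They were taken by gene name from the array annotation, and 10 of 10 were measured, by 16 probes, among 19815 genes in all. The brightest probe of each gene over the 7 conditions was used. Each of these 10 probes was well above background on 8 of 8 arrays, and no non-control spot was saturated.

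All cells were splenic CD8+ T cells purified from OT-I TCR transgenic mice on the C57BL6 background, whose receptor recognises the ovalbumin peptide SIINFEKL on H-2Kb. Messenger RNA was measured on 8 single-colour arrays, with 1 array each for IFNβ for 1 h with TCR stimulation for 6 h, IFNβ for 1 h with TCR stimulation for 1 h, TCR stimulation for 6 h, TCR stimulation for 1 h, IFNβ for 7 h and IFNβ for 2 h, and 2 arrays for untreated cells. Stimulation was with streptamers carrying SIINFEKL on H-2Kb. IFNβ with TCR for 6 h was set beside IFNβ for 7 h, and IFNβ with TCR for 1 h beside IFNβ for 2 h; the labels do not say whether IFNβ stayed on during TCR stimulation. The labels give a purity of 90 to 97% by flow cytometry and do not say whether animals were pooled or whether cultures were separate. No treated condition has a replicate, so p-values measure only how far the 7 samples depart from the fitted model. That spread comes from IFNβ for 2 h against 7 h and from IFNβ differences that vary with TCR. In models with interactions, only IFNβ for 2 h against 7 h remains. How much of it is technical is not known. The series concerns the effect of type I interferons on T cell responses.

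An activated CD8+ T cell can become a short-lived killer cell or a long-lived memory cell, and the balance of transcription factors decides between them. T-bet, encoded by Tbx21, drives effector genes such as Ifng and works with ZEB2, while Eomesodermin shares targets with T-bet and supports memory cells. BLIMP-1 (Prdm1) and BCL6 repress each other, ID2 and ID3 hold E proteins off DNA in effector and memory precursor cells, and RUNX3, BHLHE40 and GATA3 maintain the CD8 lineage programme, cytokine output and survival.

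Signal is given on a linear scale on which the 75th percentile of each array is 1500, and levels are compared within a probe, never between probes. Before this scaling the 75th percentile lay between 807 and 1241 intensity units, and 26065 to 29533 of 43379 non-control spots per array were well above background. Untreated cells gave arrays that were nearly alike: at 153 repeated probes they differed with a robust SD of 0.0359 log2, against 0.0331 expected from spots alone, and a plain SD of 0.0629 against 0.0550. Their mean was therefore counted as 1 sample. Over the fate factors these arrays differed by at most 0.24 log2, for Id2. The deposited series values and the scanner files give the 2 arrays with TCR for 1 h opposite identities, and the series values' naming was used. With the other naming, the IFNβ difference within that pair changes sign for every gene. The naming used was chosen with antiviral genes in view, so this pair is no independent evidence of an IFNβ difference.

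The arrays carried signal of the labelled cells and of others. Markers of CD8 T cells were well above background on every array for 8 of 8 genes, with summed signal of 349100 and 330200 on the arrays with TCR for 6 h and between 641500 and 894800 on the other 6. Summed signal of 7 measured B cell markers was 35420 and 41260 on the arrays with IFNβ alone, 5358 and 4579 with TCR for 6 h and 10280 and 11480 with TCR for 1 h, against 13470 and 13100 on untreated arrays. For 6 markers of class II cells the sums were 31130 and 52200 with IFNβ alone, and 13490 and 10500 with TCR for 6 h, against 23530 and 23070 untreated. Of the B cell markers 6 of 7 were well above background on the arrays with TCR for 6 h, and 7 of 7 on the others. The 6 NK cell markers summed to 5585 and 5867 with IFNβ alone, 4855 and 4895 at TCR for 6 h with and without IFNβ, and 3036 and 3987 at TCR for 1 h with and without it, against 3980 and 3920 untreated. In these sums Klrc1 was at 2559 and 3021 with TCR for 6 h, against 1087 on both untreated arrays. In the limma fits below, 1 of the 6, Klrc1, was higher at 6 h (22.3% of all genes). Tyrobp, Klrb1c and Ncr1, 3 of the 6, were lower (22.8%), and the median log2 difference was -1.26. The 3 erythroid markers summed to 4535 and 4709 with IFNβ alone and 1977 to 2991 with TCR, against 1810 and 1775 untreated. Over the 8 arrays the sum ranged from 1960 to 4969 for 8 myeloid markers and 265.2 to 838.4 for 4 CD4 T cell markers. The CD4 sum was highest with TCR for 1 h, where Cd40lg was at 544, against 9.352 and 9.042 untreated. Cd4, Zbtb7b and Foxp3 were at 143.5, 73.64 and 77.26 there, against 110.3, 72.44 and 83.76 on the first untreated array. The part of these cell types in the results below was not tested. In such bulk samples fewer cells of a type and less RNA per cell cannot be told apart.

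With TCR stimulation for 6 h the calls among the fate factors went both ways, as did those over all genes. At 6 h, Tbx21, Bhlhe40, Zeb2 and Id3 rose, Prdm1 and Runx3 fell, and Eomes, Id2, Bcl6 and Gata3 did not pass the test. At 1 h, Tbx21 and Bhlhe40 rose and no factor fell. In limma fits across all genes, 6 of 10 passed an adjusted p of 0.05 at 6 h, where the share over 19814 genes was 45.1% (22.3% higher, 22.8% lower). At 1 h 2 of 10 passed, where the share was 4.3% (2.57% higher, 1.73% lower). These fits set the 2 arrays with TCR at that time against the 3 samples without TCR, adjusted for IFNβ. The median log2 difference of the factors was 0.21 at 6 h and 0.29 at 1 h, against 0.05 and -0.05 over all genes. Of all calls at 6 h, 49.4% were higher, and 62.7% after scaling to the array median, which moved the median of all genes to 0.38. Between single arrays, at least 2-fold differences were seen for 8 of 10 factors for IFNβ with TCR for 6 h against IFNβ for 7 h (47.2% of all genes) and 8 of 10 for TCR for 6 h against untreated cells (43.4%). At 1 h they were seen for 4 of 10 with IFNβ, against IFNβ for 2 h (24.2%), and 5 of 10 without, against untreated cells (18.1%). Each TCR time lies on a slide of its own for the treated arrays, with untreated cells on both slides.

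**Figure D1:**
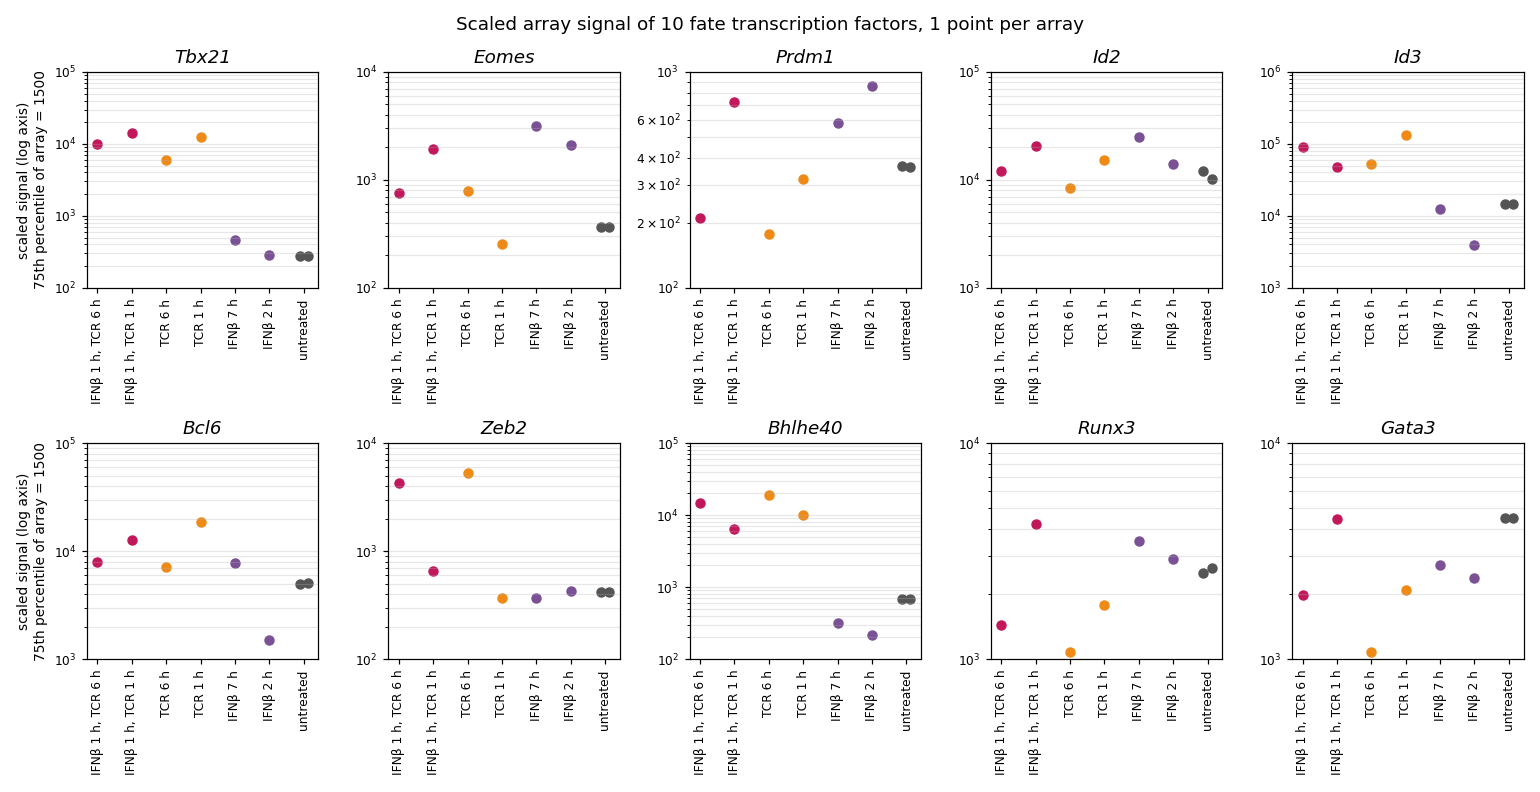
Scaled signal of the 10 factors on the 8 arrays, on log axes, with 1 point per array and conditions along the horizontal axis. Tbx21 and Bhlhe40 stand above the arrays without TCR at both times (5.42 and 4.32 log2 at 1 h), and Zeb2 at 6 h (3.59 log2). Under the naming used, Eomes is at 1933 to 3162 on 3 of the 4 arrays with IFNβ. With the scanner files' naming, the array at 1933 has TCR for 1 h alone.

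Tbx21, the gene of the effector factor T-bet, rose at both times. Its signal was 9805 with IFNβ and TCR for 6 h, 14360 with IFNβ and TCR for 1 h, 6015 with TCR for 6 h and 12610 with TCR for 1 h, against 461.6 with IFNβ for 7 h, 284.2 with IFNβ for 2 h, and 272.6 and 275.4 in untreated cells. The 4 arrays with TCR lay above the 4 without, with no overlap. The rise was 24.4-fold at 6 h (log2 4.61 ± 0.30, SE, adjusted p = 0.00037) and 42.9-fold at 1 h (5.42 ± 0.30, adjusted p = 0.0035), higher in 2 of 2 pairs of arrays at each time. At 6 h against 1 h the difference was -0.81 ± 0.32 (adjusted p = 0.10), which did not pass. Tbx21 passed in 20 of 20 alternative analyses at 6 h and in 19 of 19 at 1 h.

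Eomes, the paralogue of Tbx21, had another pattern. Its signal was 759.6 with IFNβ and TCR for 6 h, 1933 with IFNβ and TCR for 1 h, 786.7 with TCR for 6 h and 253.3 with TCR for 1 h, against 3162 with IFNβ for 7 h, 2117 with IFNβ for 2 h, and 369.2 and 366.4 in untreated cells. Under the naming used, the 3 highest arrays all had IFNβ. The fourth array with IFNβ, that with TCR for 6 h, was level with TCR for 6 h alone. With the scanner files' naming, the array at 1933 is that for TCR for 1 h alone. The TCR difference was -0.47 ± 0.69 at 6 h (adjusted p = 0.61) and -0.62 ± 0.69 at 1 h (adjusted p = 0.65). Behind the 6 h estimate stood opposite single differences, 1.10 log2 higher for TCR for 6 h than untreated and -2.06 for IFNβ with TCR for 6 h against IFNβ for 7 h. Without the array for TCR for 6 h the estimate was -1.78 ± 0.38 (adjusted p = 0.015).

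With IFNβ, Eomes had the highest estimate of the 10 factors under the naming used. It lay 8.60-fold above untreated cells with IFNβ for 7 h and 5.75-fold with IFNβ for 2 h (2.52 log2), and with IFNβ and TCR for 1 h it lay 7.63-fold above TCR for 1 h (2.93). With IFNβ and TCR for 6 h it was 0.97 times TCR for 6 h (-0.05). Over 4 arrays with IFNβ against 3 samples without, the difference was 1.99 ± 0.58, higher in 3 of 4 pairs, and did not pass (adjusted p = 0.42). Without either array with TCR for 6 h, which gives the same IFNβ estimate, it was 2.87 ± 0.30 and passed (adjusted p = 0.016), as it did on slide 1 alone (2.73 ± 0.34, adjusted p = 0.027). With the scanner files' naming of the 1 h pair it was 0.23 ± 1.03 (adjusted p = 1), below Id2 (0.34), Tbx21 (0.32) and Id3 (0.24). The IFNβ difference with TCR for 6 h, less that without TCR, was -2.87 ± 0.60 (adjusted p = 0.50), from a model with 1 residual degree of freedom. Summed signals of the markers of NK cells, which express Eomes, and of B cells, class II cells and erythroid cells, given above, were also higher than in untreated cells on both arrays with IFNβ alone. Not every NK gene rose there. At 7 h and 2 h, Tyrobp was at 1797 and 2334 (1503 and 1431 untreated) and Fcer1g at 2147 and 1986 (1180 and 1193). Klra8 and Ncr1 rose at lower signal. Klrb1c was at 195.2 and 138.4 (131.4 and 135.4), and Klrc1 at 1038 and 1080 (1087 on both). On the array with IFNβ and TCR for 1 h, where Eomes was at 1933, the sums for NK, B and class II cells were below untreated cells and the erythroid sum was above them, at 2391. The part of such cells in the Eomes differences was not tested.

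The 250 bases before the annotated start of Eomes are shown because this gene had the highest IFNβ estimate of the 10 under the naming used. They lie at chr9:118477939-118478188 (RefSeq, build GRCm38.p6, plus strand), with a match to GAAANNGAA, a core shared by interferon-response elements, in capitals from 154 bases before the start.
Eomes: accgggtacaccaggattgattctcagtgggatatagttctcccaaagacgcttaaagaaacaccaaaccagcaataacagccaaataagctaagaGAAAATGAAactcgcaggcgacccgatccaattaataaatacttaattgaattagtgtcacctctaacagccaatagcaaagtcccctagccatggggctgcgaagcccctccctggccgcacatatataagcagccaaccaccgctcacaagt
Both strands of RefSeq windows from 250 bases before to 50 after each start were searched for 8 motifs chosen after the values were seen, and no matches of different motifs overlapped in the fate factors. GAAANNGAA was present in 8.56% of 32851 windows, and among the 9 factors with a window in Eomes alone. Bhlhe40 had no window. A match is a description of the letters and not of a bound site.

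Zeb2, a zinc finger repressor that acts with T-bet in terminal effector cells, rose at 6 h. Its signal was 4263 with IFNβ and TCR for 6 h and 5316 with TCR for 6 h. On the other 6 arrays it was 652.4 with IFNβ and TCR for 1 h, 369.8 with TCR for 1 h, 365.7 with IFNβ for 7 h, 423.5 with IFNβ for 2 h, and 418.1 and 417.9 in untreated cells. The 2 arrays with TCR for 6 h lay above the other 6 without overlap. The rise was 12.01-fold at 6 h (3.59 ± 0.31, adjusted p = 0.00054), and at 1 h the difference was 0.31 ± 0.31 (adjusted p = 0.62). At 6 h against 1 h Zeb2 rose 9.69-fold (3.28 ± 0.34, adjusted p = 0.0022), and this passed in 18 of 18 alternatives. Of 4 further Zeb2 probes, 1 was well above background on 8 arrays, and it differed by 3.56 log2 for TCR for 6 h against untreated and by 3.27 for IFNβ with TCR for 6 h against IFNβ for 7 h. The other 3 were dim, well above background on 2 to 6 arrays. They differed by 2.35, 3.45 and 4.11 log2 for TCR for 6 h against untreated. For IFNβ with TCR for 6 h against IFNβ for 7 h they differed by 2.12, 0.05 and 3.36, in the same order. The probe at 0.05 also lay 2.34 log2 above untreated cells with IFNβ for 7 h and 1.65 with IFNβ for 2 h.

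One of 4 Zeb2 start windows in RefSeq, chr2:45110278-45110527 on the minus strand of GRCm38.p6, holds 2 matches to TGACTCA, the core recognised by AP-1, at 189 and 132 bases before the start. It is shown because Zeb2 was the 1 factor of the 10 that rose at 6 h against 1 h, and capitals mark the matches, the first of them on the opposite strand.
Zeb2: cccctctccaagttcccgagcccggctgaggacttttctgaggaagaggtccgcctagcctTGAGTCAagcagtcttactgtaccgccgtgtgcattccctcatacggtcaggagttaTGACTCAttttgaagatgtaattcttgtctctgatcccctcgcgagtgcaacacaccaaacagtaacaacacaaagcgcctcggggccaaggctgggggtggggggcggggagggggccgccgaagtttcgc
TGACTCA was in 5.2% of all windows and, among the 9 factors with a window, in Zeb2 alone. CACCTG, an E-box that ZEB and E proteins recognise, was in 20.2% of windows and in those of Prdm1, Runx3 and Tbx21. GCGNGGGCG, an EGR core, was in 5.55% and in Runx3, and the E-box CACGTG was in 7.15% and in Bcl6. TGACGTCA and TGGAAAA, cores for CREB and NFAT, were in 1.79% and 6.73% of windows and in 0 of the 9 factors, from which nothing follows about those proteins.

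Bhlhe40, a basic helix-loop-helix repressor needed for cytokine output and metabolic fitness of T cells, rose at both times. Its signal was 14530 with IFNβ and TCR for 6 h, 6456 with IFNβ and TCR for 1 h, 19280 with TCR for 6 h and 9920 with TCR for 1 h, against 321.1 with IFNβ for 7 h, 215.9 with IFNβ for 2 h, and 689.5 and 690.3 in untreated cells. The groups with and without TCR did not overlap. The rise was 41.7-fold at 6 h (5.38 ± 0.33, adjusted p = 0.00036) and 19.9-fold at 1 h (4.32 ± 0.33, adjusted p = 0.0057). Without the array for TCR for 1 h the 1 h call was lost (4.48 ± 0.45, adjusted p = 0.063), as it was without the array for IFNβ and TCR for 1 h (4.13 ± 0.50, adjusted p = 0.060). The later time stood 1.06 ± 0.36 above the earlier and did not pass (adjusted p = 0.068).

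Bhlhe40 was also lower with IFNβ in 4 of 4 pairs under the naming used. The differences were -0.41 log2 for IFNβ with TCR for 6 h, -0.62 for IFNβ with TCR for 1 h, -1.10 for IFNβ for 7 h and -1.68 for IFNβ for 2 h. The estimate was -0.86 ± 0.28 and did not pass (adjusted p = 0.47, and 0.16 to 1 over 21 alternatives). Under the scanner files' naming it was lower in 3 of 4 pairs, with an estimate of -0.49 ± 0.41.

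**Figure D2:**
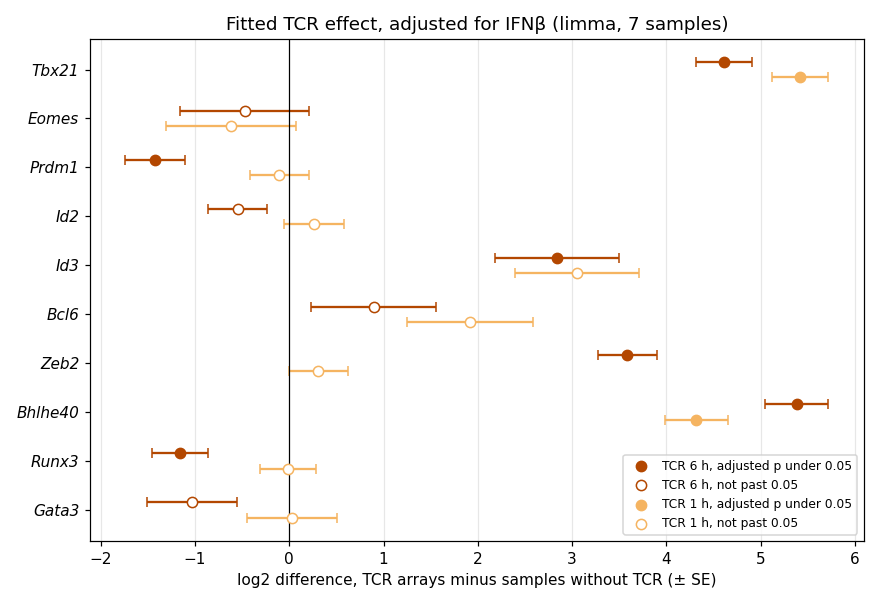
Fitted log2 difference of each factor with TCR for 6 h and for 1 h against samples without TCR, adjusted for IFNβ, with bars of 1 SE on 7 samples. Filled points passed an adjusted p of 0.05, 6 at 6 h (4 higher, 2 lower) and 2 at 1 h, both higher. Over all genes 45.1% passed at 6 h and 4.3% at 1 h.

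ID2 and ID3 are small helix-loop-helix proteins without a DNA-binding region that capture E proteins, and Id2 and Id3 mark effector and memory precursor cells. Their probes are shown because the 2 genes moved differently and belong to 1 family. Each was 60 bases long, at chr12:25780183-25780530 on the minus strand for Id2 and at chr4:135700075-135700249 on the plus strand for Id3 in mm9, spans longer than the probe.
Id2: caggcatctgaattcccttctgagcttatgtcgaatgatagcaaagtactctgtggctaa
Id3: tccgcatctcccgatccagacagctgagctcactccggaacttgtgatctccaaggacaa
The longest run of letters the 2 probes share is 7 bases, and at most 25 of 60 positions match at any ungapped alignment.

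Id3 signal was high on every array with TCR. It was 89780 with IFNβ and TCR for 6 h, 47820 with IFNβ and TCR for 1 h, 52790 with TCR for 6 h and 132500 with TCR for 1 h, against 12330 with IFNβ for 7 h, 3914 with IFNβ for 2 h, and 14720 and 14760 in untreated cells. The 4 arrays with TCR lay above the 4 without. Id3 rose 7.16-fold at 6 h (2.84 ± 0.66, adjusted p = 0.014), and this did not pass once the array for IFNβ with TCR for 6 h was left out (1.73 ± 0.73, adjusted p = 0.14). At 1 h the difference was 3.05 ± 0.66 and did not pass (adjusted p = 0.059), though it passed in 7 of 19 alternatives, among them slide 1 alone (3.39 ± 0.34, adjusted p = 0.014). In the IFNβ pairs Id3 differed by 0.77 log2 with TCR for 6 h, -1.47 with TCR for 1 h, -0.26 at 7 h and -1.91 at 2 h, for an estimate of -0.65 ± 0.55 (adjusted p = 0.79).

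Id2 did not pass in the TCR comparisons with the scaling used. It was 12090 with IFNβ and TCR for 6 h, 20450 with IFNβ and TCR for 1 h, 8336 with TCR for 6 h and 15120 with TCR for 1 h, against 25170 with IFNβ for 7 h, 14020 with IFNβ for 2 h, and 11960 and 10130 in untreated cells. Arrays with and without TCR overlapped. The TCR difference was -0.55 ± 0.31 at 6 h (adjusted p = 0.21) and 0.26 ± 0.31 at 1 h (adjusted p = 0.68). With quantile normalization it passed at 6 h (-1.02 ± 0.28, adjusted p = 0.031) and at 6 h against 1 h (-1.16 ± 0.31, adjusted p = 0.038), as it did at 6 h against 1 h with normexp (-0.95 ± 0.27, adjusted p = 0.020). Id2 was higher with IFNβ in 4 of 4 pairs, by 0.54, 0.44, 1.19 and 0.35 log2 with TCR for 6 h, with TCR for 1 h, at 7 h and at 2 h. The estimate of 0.60 ± 0.26 did not pass (adjusted p = 0.61), and a further Id2 probe, also well above background on 8 arrays, gave 1.01 at 7 h and -0.09 at 2 h. Id2 was higher in 3 of 4 pairs under the scanner files' naming, with an estimate of 0.34 ± 0.34.

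Prdm1 encodes BLIMP-1, a repressor of memory genes in terminal effector cells, and it fell at 6 h. Its signal was 210.3 with IFNβ and TCR for 6 h and 176.7 with TCR for 6 h, below all 6 other arrays. There it was 725.0 with IFNβ and TCR for 1 h, 319.1 with TCR for 1 h, 580.8 with IFNβ for 7 h, 862.1 with IFNβ for 2 h, and 366.6 and 364.4 in untreated cells. At 6 h it was 2.68-fold lower (-1.42 ± 0.32, adjusted p = 0.012), and at 1 h the difference was -0.10 ± 0.32 (adjusted p = 0.89). The 6 h call was lost without the array for IFNβ with TCR for 6 h (-0.98 ± 0.42, adjusted p = 0.15) and with the scanner files' naming (-1.54 ± 0.52, adjusted p = 0.061). Against 1 h, Prdm1 fell by 1.32 at 6 h (SE 0.34, adjusted p = 0.030), which passed in 12 of 18 alternatives.

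The 3 highest Prdm1 signals were on arrays with IFNβ under the naming used. The IFNβ differences were 0.25 log2 with TCR for 6 h, 1.18 with TCR for 1 h, 0.67 at 7 h and 1.24 at 2 h, higher in 4 of 4 pairs. The estimate of 0.81 ± 0.27 did not pass (adjusted p = 0.48), and no setting of 21 gave a call. With the scanner files' naming the array at 725.0 has TCR alone, 3 of 4 pairs were higher, and the estimate was 0.10 ± 0.43.

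Bcl6, a repressor opposed to BLIMP-1 that favours memory and follicular programmes, had its highest signals at 1 h of TCR. They were 7916 with IFNβ and TCR for 6 h, 12610 with IFNβ and TCR for 1 h, 7128 with TCR for 6 h and 18520 with TCR for 1 h, against 7754 with IFNβ for 7 h, 1517 with IFNβ for 2 h, and 4908 and 5084 in untreated cells. Both arrays at 1 h lay above the other 6, and those at 6 h overlapped with IFNβ for 7 h. The TCR difference was 0.89 ± 0.67 at 6 h (adjusted p = 0.32) and 1.92 ± 0.67 at 1 h (adjusted p = 0.15). It passed at 1 h on slide 1 alone (2.48 ± 0.40, adjusted p = 0.044) and with another background correction, normexp (1.89 ± 0.51, adjusted p = 0.035). With IFNβ alone Bcl6 was 1.55-fold above untreated cells at 7 h and 3.29-fold below them at 2 h. The IFNβ estimate was -0.34 ± 0.56 (adjusted p = 0.90).

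One of 2 Bcl6 start windows, chr16:23981284-23981533 on the minus strand of GRCm38.p6 in RefSeq, holds 3 matches to TTCNNNGAA, the core recognised by STAT proteins, at 168, 122 and 88 bases before the start. It is shown because Bcl6 had signals on opposite sides of untreated cells with the 2 durations of IFNβ, and capitals mark the matches.
Bcl6: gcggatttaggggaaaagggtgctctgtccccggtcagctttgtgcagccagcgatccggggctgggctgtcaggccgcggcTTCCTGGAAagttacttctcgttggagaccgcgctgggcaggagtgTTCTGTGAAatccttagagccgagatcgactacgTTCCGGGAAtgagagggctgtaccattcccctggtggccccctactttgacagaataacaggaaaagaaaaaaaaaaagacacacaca
TTCNNNGAA was in 8.3% of windows and in 2 of the 9 factors, Bcl6 and Zeb2.

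Runx3, which keeps the CD8 lineage programme and cytotoxic genes active, fell at 6 h. Its signal was 1434 with IFNβ and TCR for 6 h and 1075 with TCR for 6 h. On the other 6 arrays it was 4241 with IFNβ and TCR for 1 h, 1777 with TCR for 1 h, 3524 with IFNβ for 7 h, 2912 with IFNβ for 2 h, and 2502 and 2634 in untreated cells. The arrays at 6 h were the 2 lowest. The fall was 2.23-fold (-1.16 ± 0.30, adjusted p = 0.021), and at 1 h the difference was -0.01 ± 0.30 (adjusted p = 0.99). The 6 h call held in 15 of 20 alternatives and was lost without IFNβ for 7 h (adjusted p = 0.052), without TCR for 6 h (0.055), without IFNβ with TCR for 6 h (0.18), with median scaling (0.066) and with the scanner files' naming (0.062). A dimmer Runx3 probe, at 364.2 to 570.8 over the 8 arrays, differed by -0.21 log2 for TCR for 6 h against untreated cells, where the probe used differed by -1.25. At 6 h against 1 h Runx3 fell by 1.15 (SE 0.32, adjusted p = 0.039), and with the mean of both probes the difference was -0.60 ± 0.25 (adjusted p = 0.12).

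Runx3 was higher with IFNβ in 4 of 4 pairs, and the estimate of 0.63 ± 0.25 did not pass (adjusted p = 0.56). Its largest difference was 1.25 log2, within the pair at TCR for 1 h whose naming is disputed. The other probe gave -0.25 there. Runx3 was higher in 3 of 4 pairs under the scanner files' naming, and the estimate was -0.12 ± 0.36.

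Gata3, a zinc finger factor for T cell maintenance and growth, had signals of 1990 with IFNβ and TCR for 6 h, 4475 with IFNβ and TCR for 1 h, 1078 with TCR for 6 h and 2087 with TCR for 1 h. Without TCR they were 2738 with IFNβ for 7 h, 2380 with IFNβ for 2 h, and 4496 and 4511 in untreated cells. Under the naming used, both treatments given alone lay below untreated cells, and IFNβ with TCR for 1 h lay level with them. With the scanner files' naming, the array level with them is that for TCR for 1 h alone. The TCR difference was -1.03 ± 0.48 at 6 h (adjusted p = 0.13) and 0.03 ± 0.48 at 1 h (adjusted p = 0.98). Against the matching arrays without IFNβ, Gata3 differed by 0.88 log2 with TCR for 6 h and 1.10 with TCR for 1 h, and by -0.72 at 7 h and -0.92 at 2 h without TCR. The test of this difference gave 1.70 ± 0.48 at 6 h (adjusted p = 0.53) and 1.92 ± 0.48 at 1 h (adjusted p = 0.61), neither of which passed. With the scanner files' naming the 1 h value was -0.28 ± 0.48 (adjusted p = 0.81).

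**Figure D3:**
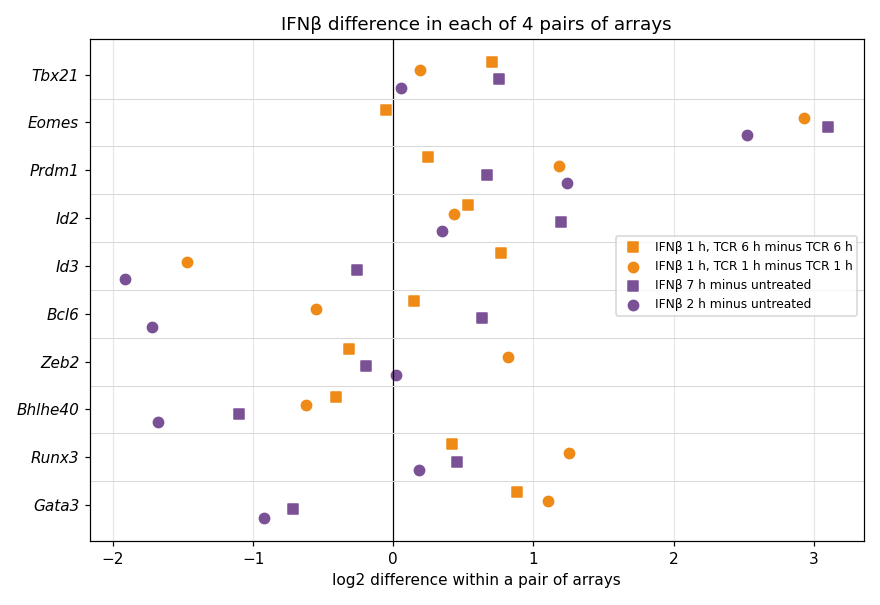
Log2 difference with IFNβ in each of the 4 pairs of arrays, for each factor. Eomes lies at 2.52 or above in 3 pairs and at -0.05 with TCR for 6 h, Bhlhe40 is below 0 in 4 of 4 pairs, and Gata3 is above 0 in both pairs with TCR and below 0 in both without. The points of the pair at TCR for 1 h lie on the other side of 0 with the scanner files' naming.

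Over all 10 factors, 0 passed for IFNβ in limma, where 0.0656% of 19815 genes passed, 13 genes, all higher. Without adjustment, 1702 of the 19815 genes had a limma p under 0.05, among them Eomes, Prdm1, Bhlhe40 and Runx3. These rest on the naming used. With the scanner files' naming the estimates were 0.23 for Eomes, 0.10 for Prdm1, -0.49 for Bhlhe40 and -0.12 for Runx3. Tbx21 differed by 0.43 ± 0.25 (adjusted p = 0.68), higher in 4 of 4 pairs (3 of 4 with the scanner files' naming), Gata3 by 0.27 ± 0.40 (adjusted p = 0.88) and Zeb2 by 0.12 ± 0.26 (adjusted p = 0.93). At least 2-fold differences between single arrays, which have no replicate error, were seen for 0 of 10 factors for IFNβ with TCR for 6 h against TCR for 6 h, where 5.56% of all genes had one. They were seen for 5 of 10 for IFNβ with TCR for 1 h against TCR for 1 h (15.7% of genes), 3 of 10 at 7 h of IFNβ alone (17.8%), 5 of 10 at 2 h (15.3%), and 0 of 10 between the untreated arrays (2.93%). For the interactions of IFNβ with TCR, 0 of 10 factors and 0% of all genes passed at either time, with 1634 genes at 6 h and 1501 at 1 h at an unadjusted p under 0.05.

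For TCR at 6 h against 1 h, 3 of 10 factors passed, Zeb2 higher and Prdm1 and Runx3 lower, where the share over 19813 genes was 32.1% (16.4% higher, 15.7% lower). With median scaling 65.3% of all calls were higher, against 51.2% with the 75th percentile. The 7 factors that did not pass ranged from -1.06 ± 0.52 for Gata3 (adjusted p = 0.17) to 1.06 for Bhlhe40. The median over the 10 factors was -0.81, and 0.07 for the array as a whole. In the model with slide as a block, Zeb2 alone of the 10 passed, where 14.3% of all genes did. There Prdm1 stood at -1.03 ± 0.45 (adjusted p = 0.18) and Runx3 at -1.32 ± 0.45 (adjusted p = 0.10).

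Some factors followed each other over the 7 conditions. Log2 signal of Bhlhe40 correlated with Id3 at a Pearson r of 0.927 and with Tbx21 at 0.926, Prdm1 with Runx3 at 0.921, and Tbx21 with Id3 at 0.911. Zeb2 ran opposite to Runx3 (-0.763) and Prdm1 (-0.760). These describe 7 conditions that share arrays, scaling and slides.

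Among 12129 named genes well above background on 8 arrays, the likest to each factor by the same measure were, for the factors that rose, Egr2 (0.994) and Rasgef1b (0.990) for Tbx21, Prmt6 (0.995) and Hccs (0.994) for Bhlhe40, Gphn (0.995) and Psmg1 (0.995) for Zeb2, and Mapkapk2 (0.995) and Moap1 (0.993) for Id3. Egr2 encodes an early growth response factor induced by TCR signals. For Prdm1 they were Prox2 (0.994) and Myo6 (0.992), and for Runx3 Tmem89 (0.989) and P2rx2 (0.988). For the others they were Rarres2 (0.985) and Keap1 (0.984) for Eomes, Arhgef2 (0.992) and Ttc39c (0.973) for Id2, Crk (0.980) and Abhd2 (0.977) for Bcl6, and Prickle1 (0.975) and Dstyk (0.974) for Gata3. Picking the top 2 of 12129 genes over 7 conditions favours high values, and no link between these genes and the factors was tested.

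Most factors that maintain naive and memory cells fell at 6 h. Of 13 measured, 9 fell and 1 rose (22.8% and 22.3% of all genes). Their median was -2.05, against 0.05 over all genes. The quiescence factors Klf3 (-6.20 ± 0.41, adjusted p = 0.00037) and Klf2 (-5.01 ± 0.42, adjusted p = 0.00051) and Tcf7, which encodes TCF-1 (-3.83 ± 0.30, adjusted p = 0.00046), fell, and Foxp1 rose (1.08 ± 0.23, adjusted p = 0.011). At 1 h 0 of 13 passed, with Foxo3 at -1.88 and Klf3 at -1.73. At 6 h against 1 h, 8 fell and 1 rose, where 15.7% and 16.4% of all genes did.

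Other factors of effector cells went both ways. Of 17 listed, 16 were measured, and 8 rose and 3 fell at 6 h (22.3% and 22.8% of all genes), with a median of 1.24. At 1 h 2 rose and none fell (2.57% and 1.73% of all genes), with a median of 0.48. Irf4, which scales with TCR signal strength, rose at 6 h (5.47 ± 0.40, adjusted p = 0.00042) and 1 h (5.11 ± 0.40, adjusted p = 0.0058). Irf8 rose too (4.91 ± 0.54 at 6 h and 3.21 ± 0.54 at 1 h, adjusted p = 0.00096 and 0.033). Rbpj, the DNA-binding partner of Notch, rose at 6 h (2.70 ± 0.26), while Ikzf2 (-2.03 ± 0.42), Stat5b (-1.49 ± 0.34) and Stat4, the transducer of IL-12 (-1.48 ± 0.26), fell.

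**Figure D4:**
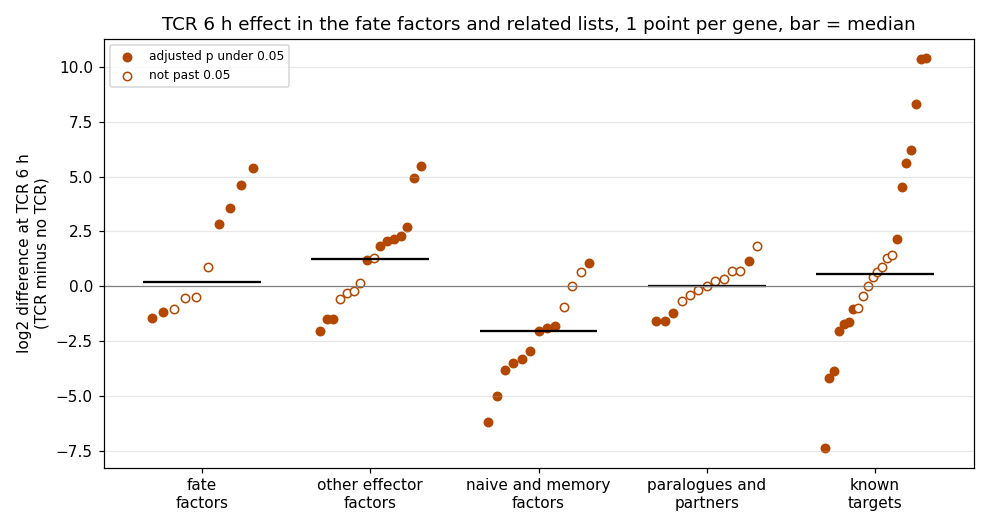
Log2 difference with TCR for 6 h for the 10 fate factors and 4 related gene lists, with 1 point per measured gene, filled where the adjusted p was under 0.05, and a bar at each median. The median is 0.21 for the fate factors, 1.24 for other effector factors, -2.05 for naive and memory factors, 0.02 for paralogues and partners and 0.54 for known targets.

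Paralogues and partner proteins of the fate factors were also listed. Of 15 listed, 13 were measured, and 1 rose and 3 fell at 6 h (22.3% and 22.8% of all genes), with a median of 0.02. Cbfb, the partner of RUNX proteins, rose (1.14 ± 0.24, adjusted p = 0.010) while Runx3 fell. The E protein genes Tcf4 (-1.59 ± 0.42, adjusted p = 0.024) and Tcf3 (-1.22 ± 0.22, adjusted p = 0.0060), whose products ID2 and ID3 bind, fell, as did Zeb1 (-1.57 ± 0.36, adjusted p = 0.014), the paralogue of Zeb2. At 1 h 0 of 13 passed, with Bcor, a partner of BCL6, at 1.60 and Id1 at 1.30.

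Genes known to be controlled by the fate factors were listed from general knowledge, and no link to a factor was tested. Of 23 listed, 22 were measured, and 7 rose and 7 fell at 6 h (22.3% and 22.8% of all genes), with a median of 0.54. At 1 h 5 rose and none fell (2.57% and 1.73% of all genes), with a median of 1.34. Ifng, a target of T-bet, rose at 6 h (8.28 ± 0.30, adjusted p = 0.00026) and 1 h (8.54 ± 0.30, adjusted p = 0.0015). Il2 (10.38 ± 0.89) and the chemokine gene Ccl3 (10.33 ± 0.70) also rose at 6 h, with adjusted p of 0.00052 and 0.00038. Il7r, the gene of the IL-7 receptor alpha chain (-7.37 ± 0.26), and the granzyme gene Gzma (-3.86 ± 0.78) fell at 6 h. With IFNβ, 0 members of each of these 4 lists passed.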

How the data were processed

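The scanner files hold intensity, a linear processed signal that the authors made per the file headers with Agilent Feature Extraction 10.7.3.1 (build mm9, per the same headers; the submitters' processing notes name version 9.5.3.1), background-subtracted and not normalized between arrays. The deposited series values, also intensity, were the processed signal multiplied by 1.209 to 1.857, by array, with a floor of 15 and column medians of 89.57, 102.4, 92.62, 95.78, 92.25, 100.6, 80.68 and 73.76; scale, centring and direction follow from that match. Of 8 columns 6 matched their own scanner file, and the 2 with TCR for 1 h matched each other's.

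Control spots and 100 to 246 outlier spots per array were left out, repeated spots averaged, log2 signal scaled to the 75th percentile, 28573 of 41174 probes retained (2 or more arrays well above background), and the brightest probe taken per gene. By accession 26690 probes matched RefSeq, 3169 with another symbol than the file's. Models with terms for IFNβ, TCR 1 h and TCR 6 h used limma 3.58.1 (R 4.3.3, with package data.table at version 1.17.8) over 7 samples, the untreated arrays averaged, with 3 residual degrees of freedom (1 with interactions), and p-values adjusted by the Benjamini-Hochberg method over all genes. The fits were tested on simulated data with known changes, built from the fitted means and spread. This cannot show how far replicates of a treated condition would differ. Motifs were searched in RefSeq windows of GRCm38.p6. Figures were made in Python 3.11.15 (matplotlib 3.10.9).

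The fate factors, the gene lists and the tests were chosen with earlier results of these data known. All 10 factors are named in every comparison; of each other list, up to 3 genes per direction with the largest changes that passed in a TCR comparison, or the 2 largest where none passed; and for each factor the 2 likest genes. Of the genes this names, 1 is not reported here. Alternatives changed the scaling, background correction, filter, probe rule, untreated arrays, array naming, slide and arrays used. The number of arrays limits the precision.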

Additional observations from a re-analysis of the deposited data

Results flagged for a closer look

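The TCR effect differed between times for 3 of the 10 factors, by limma's test of the difference, where 32.1% of all genes did. At 6 h against 1 h the log2 difference was 3.28 for Zeb2, -1.32 for Prdm1 and -1.15 for Runx3. The treated arrays of each time lie on 1 slide. With slide as a block Zeb2 passed and Prdm1 (adjusted p = 0.18) and Runx3 (adjusted p = 0.10) did not, nor did these 2 with the scanner files' naming of the 1 h arrays (0.14 and 0.13).

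For 3 factors the single IFNβ differences had opposite signs in groups of pairs. The Gata3 pairs with TCR lay on average 1.81 log2 above those without TCR; this pooled difference was not tested, and the interaction at each TCR time did not pass. The late Bcl6 pairs, at 7 h of IFNβ alone and with TCR for 6 h, lay on average 1.53 above the early ones, at 2 h of IFNβ alone and with TCR for 1 h. For Zeb2 the same late pairs lay 0.68 log2 below the early ones, a difference of -0.68. Neither the Bcl6 nor the Zeb2 difference was tested. All 3 patterns rest on the naming of the pair at TCR for 1 h: with the scanner files' naming its difference is -1.10 for Gata3, 0.56 for Bcl6 and -0.82 for Zeb2, and none of the 3 keeps opposite signs by group. No group held enough arrays for a check of single arrays far from the rest.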

How the results depend on the processing

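Of the 10 factors, 0 passed for IFNβ (0.0656% of all genes), 2 for TCR 1 h (4.3%), 6 for TCR 6 h (45.1%) and 3 for TCR 6 h against 1 h (32.1%). Leaving out 1 array at a time gave 0 to 1 for IFNβ (0 to 1.42% of all genes). Leave-outs that kept both arrays of the TCR time gave 2 to 3 for TCR 1 h (0.535 to 4.21%). They gave 5 to 6 for TCR 6 h (35.8 to 45%) and 2 to 3 for TCR 6 h against 1 h (27 to 32.1%). Without an array of the TCR time itself, calls were lost for Bhlhe40 at 1 h and for Id3, Prdm1 and Runx3 at 6 h. Eomes gained a call at 6 h, and Prdm1 and Runx3 lost theirs at 6 h against 1 h. Normexp background correction gave 4 for TCR 1 h (11.8% of all genes) and 6 for TCR 6 h against 1 h (32.6%). Slide 1 alone gave 1 for IFNβ (1.46%) and 4 for TCR 1 h (2.3%). For TCR 6 h against 1 h, the scanner files' naming of the 1 h arrays gave 1 (27.3% of all genes) and slide as a block gave 1 (14.3%). Interactions gave 0 of 10 factors in each analysis run. Of 1000 values of single factors under the alternatives, 952 kept their side of the threshold, 22 gained a call and 26 lost one. Among values called under neither setting, 60 moved by more than their error in the main fit. Values called under both settings were not checked for such moves. The cause of these changes was not tested. Of the 1000 values the sign turned for 58, of which 0 were called under either setting. With the scanner files' naming, which turns the 1 h pair by construction, it turned for 12. These were IFNβ for Gata3 (-0.39), Id3 (0.24), Runx3 (-0.12) and Zeb2 (-0.38), TCR 1 h for Gata3 (-0.08), and the 1 h interaction for Bcl6 (1.10), Eomes (-5.75), Gata3 (-0.28), Id3 (2.56), Prdm1 (-2.14), Runx3 (-1.57) and Zeb2 (-0.73).

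Over all genes the counts moved more. For IFNβ, 13 genes passed, and 0 with the scanner files' naming, 0 with quantile normalization, 87 with untreated arrays separate, 199 with normexp and 290 on slide 1 alone. For TCR 1 h, 852 passed, and 2556 with untreated arrays separate, 2338 with normexp, 1671 with probes well above background on 8 arrays, 533 with no filter, 456 on slide 1, 370 with the scanner files' naming and 38 to 834 without 1 array. For TCR 6 h, 8939 passed, and 4748 without the array for IFNβ with TCR for 6 h. For TCR 6 h against 1 h, 6357 passed, and 2826 with slide as a block and 2828 without the array for IFNβ with TCR for 1 h. For the interactions, 0 passed, and 66 with the scanner files' naming (TCR 1 h) and 26 with normexp (TCR 6 h).

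Normexp was fitted on non-control spots, since over all spots it left the array for TCR 1 h with a lowest value of 1483, against 50.06 to 50.68 on the others. Leaving out an array that is the lone sample of a condition assumes that the rest vary alike. No paired analysis was possible because the treated conditions have 1 array each and share no replicate numbers with one another beyond 1. Single arrays per treated condition limit the fitted TCR differences to 2 arrays per TCR time. Differences within a pair rest on 1 array for each treated condition.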
